A study of Mus musculus with 2 samples.

Results

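Provisional loci, the annotated genes that carry a Gm number, a RIKEN clone name or a pseudogene number in place of a functional name, made up 104 of the 179 genes that the authors listed as changed between Musclin-treated and vehicle-treated fibro/adipogenic progenitors. They were chosen by name alone: Gm followed only by digits (81 loci), a name ending in Rik (14) or a name ending in -ps with optional digits (9). Gm26561 and D130009I18Rik, which also match by name, were left out and counted with the other 75 listed genes. Fibro/adipogenic progenitors are mesenchymal stromal cells of skeletal muscle. They were freshly sorted from muscle of C57BL/6 mice and cultured in DMEM with 20% fetal bovine serum. For 72 hours the cultures then received either recombinant mouse Musclin at 1 µM, a peptide secreted by muscle, or vehicle, with daily changes of medium. Whether the cells of several animals were pooled is not given, and the cells were measured in culture only. There was 1 library per group, so no spread between replicates was measured and no test was run. The column headed PBS was taken as the vehicle library, since it is the only other library of the table. None of 10 fibro/adipogenic markers, among them Pdgfra and Ly6a, was listed, and a table of changed genes alone cannot check the labelled cell type. Of 5 erythroid markers, Hbb-bs, Hbb-bt and Hba-a1 were listed, all higher with Musclin, and their part in the results was not tested.

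A processed pseudogene arises when a spliced messenger RNA is copied back into the genome, so it often holds the coding sequence of its parent gene nearly letter for letter. A short sequencing read from such a stretch can match the parent and all of its copies equally well. RSEM, which the submitters' processing notes name without a role, is a program that divides such reads among the matching transcripts by an estimate. Gm numbers and Rik clones are a mixed class that holds pseudogenes, long noncoding RNAs, transcripts that join neighbouring genes, and a few genes whose protein is known under another name.

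The sequences of 5 transcripts are shown first because they underlie the largest family in the set. Gm10240 (chr15:68309819-68310301, plus strand), Gm10163 (chr9:88390837-88391317, plus), Rpl21-ps15 (chrX:151215167-151215649, minus) and Gm10095 (chr12:86845778-86846467, minus) are processed pseudogenes of Rpl21 (chr5:146832890-146837032, plus), which encodes a protein of the large ribosomal subunit. Bases 314 to 433, counted from the start codon, are given 5′ to 3′ from GENCODE M21 transcripts (GRCm38), with capitals where a copy differs from Rpl21.
Rpl21: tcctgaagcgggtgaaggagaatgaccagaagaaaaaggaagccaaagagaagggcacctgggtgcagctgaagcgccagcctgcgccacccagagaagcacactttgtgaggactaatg
Gm10240: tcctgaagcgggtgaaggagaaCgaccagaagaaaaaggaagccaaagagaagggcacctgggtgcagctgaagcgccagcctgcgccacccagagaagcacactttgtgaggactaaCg
Gm10163: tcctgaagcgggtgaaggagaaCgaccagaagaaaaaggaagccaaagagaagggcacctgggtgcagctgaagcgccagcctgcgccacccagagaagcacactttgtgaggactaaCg
Rpl21-ps15: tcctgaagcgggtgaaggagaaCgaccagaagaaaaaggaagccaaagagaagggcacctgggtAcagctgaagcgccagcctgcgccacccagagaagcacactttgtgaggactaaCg
Gm10095: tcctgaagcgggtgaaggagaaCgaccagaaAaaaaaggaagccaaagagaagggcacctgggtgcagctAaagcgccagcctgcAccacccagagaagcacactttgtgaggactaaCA
Over the whole 483 bases Gm10240 differed from Rpl21 at 2 positions (T336C and T432C, with the base of Rpl21 first). Gm10163, whose annotated transcript is 481 bases long, did not differ from Gm10240 at any of them. Rpl21-ps15 carried 1 further substitution, G378A. Gm10095 carried 4 further ones, G345A, G384A, G399A and G433A. The coding gene nearest to Gm10095 was BC004004, at 98.96% identity against 98.76% for Rpl21. All the differing positions of the 4 copies lie in the window shown.

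Of the 104 provisional loci, 58 were listed as higher and 46 as lower in the Musclin library. The authors listed 0.772% of the genes they tested, 0.5% as higher and 0.272% as lower. At an adjusted p of 0.01 or less, 34 members were higher and 24 lower, where 0.311% and 0.147% of all genes tested were listed. These shares count listed genes only. The p and adjusted p together show that more genes reached this threshold than the authors listed. Since all loci described here come from that list, the members' being called is no result about them. In bulk RNA, fewer cells of a type and less RNA per cell cannot be told apart. The share listed as higher was 55.8%, against 77.3% of the other 75 listed genes. The names themselves are common: 31301 of the 55450 genes of GENCODE M21 (56.4%) match the same name rule, and 58.1% of listed genes were members. The share among the genes the authors tested is not known here, so the shares are given side by side only. The median level in the higher of the 2 libraries was 1.61, in the unit of the deposited levels. The file header does not name that unit or state whether it is per length. The higher level ranged from 0.16 to 380.47. For 36 loci it was under 1, for 51 it was from 1 to 10, and for 17 it was 10 or more. Low levels went with long loci: the median of the longest transcripts was 2838 nt for loci under 1 and 996 nt for loci at 1 or more.

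**Figure D1:**
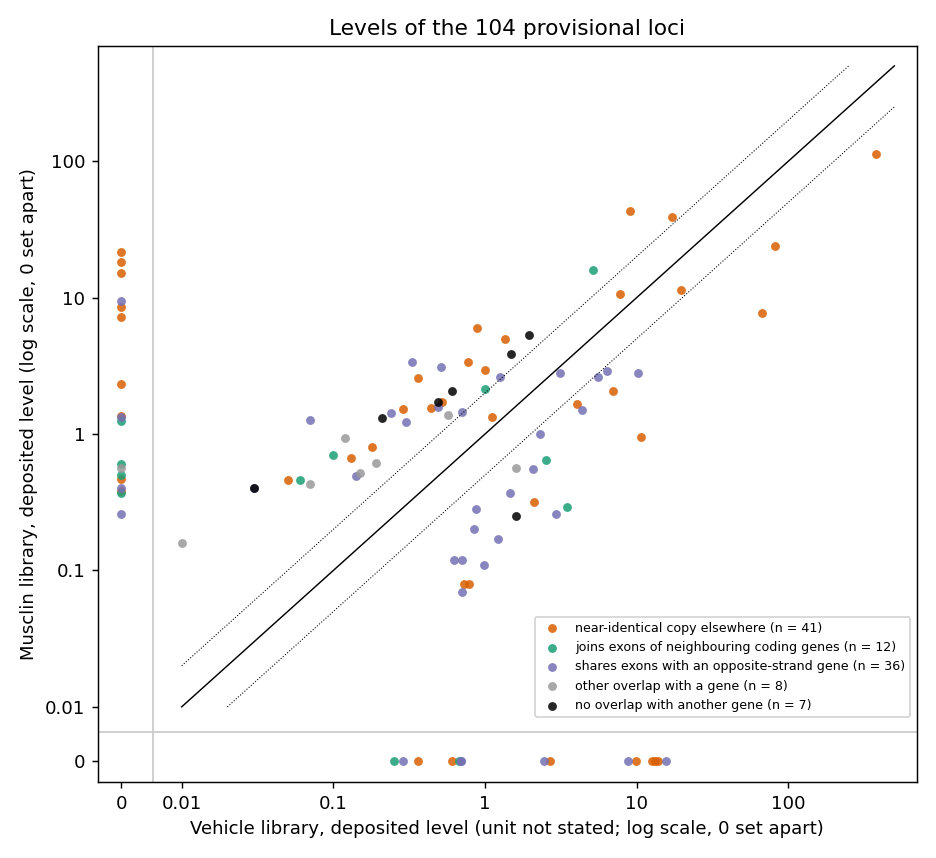
Deposited level of each of the 104 provisional loci with vehicle (horizontal axis) and with Musclin (vertical axis), both on log scales with loci at 0 set apart beyond the grey lines, coloured by the place of the locus among annotated genes. The solid line marks equal levels and the dotted lines a 2-fold difference, and 18 loci sit at 0 with vehicle and 15 at 0 with Musclin.

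A level of 0 in 1 library was listed for 33 of the 104 loci (31.7%), compared with 8 of the other 75 genes (10.7%). Of these, 18 were at 0 with vehicle and 15 at 0 with Musclin. No fold is given for them. For the 71 loci above 0 in both libraries the median log2 ratio of the levels, Musclin over vehicle, was 1.18, against 1.35 for the 67 other listed genes above 0 in both. The lowest ratio was -3.58 (Gm49383) and the highest 4.17 (Gm26776). Within the 2 directions the medians were 2.08 for loci listed as higher and -1.95 for those listed as lower, against 1.62 and -1.42 for the other genes. The locus nearest the overall median was Ptges3-ps. In the authors' deposited table the smallest log2 fold of a member was 1.07 in size. The medians therefore describe listed loci only. By level, 41 loci had a ratio above 1 and 30 a ratio below 1, and few lay near 1. The median over both directions depends on this split and gives no typical size of change. The same holds for the other genes, with 53 above and 14 below.

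Among the 104 members, the 3 highest levels in the vehicle library belonged to copies of ribosomal protein genes. By name, 4 members are ribosomal protein pseudogenes, 3 listed as higher and 1 as lower. By sequence, 4 further members with Gm names (Gm10163, Gm10240, Gm10095 and Gm9794) copy a ribosomal protein gene, with 95% identity as the minimum across 50% or more of their length. The 8 copies together had a summed level of 531.56 with vehicle and 190.4 with Musclin, out of 767.59 and 445.27 for all 104 loci. Of the 8, 5 were listed as higher and 3 as lower. None of 82 functional ribosomal protein genes was listed, so the copies are described here without their parents' levels.

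Rpl27-ps3 stood at the highest level of any member, 380.47 in the vehicle library against 113.53 in the Musclin library (log2 level ratio -1.74). Its transcript of 411 nt on chromosome 18 is identical to part of that of Rpl27, a protein of the large ribosomal subunit. The other lower copies were Gm10163 and Gm10240, and in the vehicle library these 3 held the highest levels of the 8. Rpl17-ps3 had levels of 0.88 and 5.94, and its sequence is 99.64% identical to Rpl17. Rpl9-ps6 had 1.35 and 4.95. GENCODE types Rpl9-ps6 as protein-coding and RefSeq as a pseudogene, and it is 99.86% identical to Rpl9 over the aligned part. Gm9794, a copy of Rpl23 with 99.76% identity, was listed at 0 with vehicle and at 8.58 with Musclin.

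The 4 Rpl21 copies went in opposite directions. Gm10163 stood at 81.85 in the vehicle library and at 24.1 in the Musclin library. Gm10240 had 67.01 and 7.74, a log2 level ratio of -3.11, and over 481 bases it has the same letters as Gm10163. Rpl21-ps15 was listed at 0 with vehicle and at 18.33 with Musclin, and Gm10095 at 0 and 7.23. The copies that differ from Rpl21 at 2 positions were thus the ones above 0 with vehicle, and those with more substitutions were above 0 with Musclin only. The 4 copies summed to 148.86 in the vehicle library and to 57.4 in the Musclin library, a log2 ratio of -1.37. Each of them has between 57 and 60 near-identical genes in the annotation, and a read from the stretches they share cannot be assigned to 1 of them by its sequence.

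Members that are near-identical to another member numbered 17, in 7 families, and 5 of the 7 families held loci listed in both directions. With 58 members listed as higher and 46 as lower, loci grouped without regard to sequence would often differ in direction too. Whether near-identical loci do so more often was not tested. Gm14308 and Gm14434, which lie 126.6 kb apart on chromosome 2, share 1497 bases of transcript without a difference. Gm14308 went from 7.75 in the vehicle library to 10.71 in the Musclin library, and Gm14434 from 19.59 to 11.46. Their sum was 27.34 and 22.17, a log2 ratio of -0.30, where the authors' deposited table lists a fold of 2.334 for the first and 0.41 for the second. Each of the pair has 10 near-identical genes in the annotation. The sum covers the pair only, so it is no total of their family. Their RefSeq promoters, from 250 bases before the start to 50 after, are shown because the pair is listed in opposite directions from the same letters. The window of Gm14308 (chr2:176636270-176636569, minus strand, GRCm38.p6) and that of Gm14434 (chr2:176486700-176486999, minus strand) differ at 0 of 300 positions.
Gm14308 and Gm14434: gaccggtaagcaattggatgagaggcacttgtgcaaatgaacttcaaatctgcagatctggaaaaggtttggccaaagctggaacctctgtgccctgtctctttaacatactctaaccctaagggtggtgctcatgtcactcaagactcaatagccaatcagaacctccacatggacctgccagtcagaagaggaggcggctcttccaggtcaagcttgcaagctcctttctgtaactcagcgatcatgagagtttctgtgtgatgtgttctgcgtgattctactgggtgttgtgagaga

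Another family is a run of 387 bases found in Gm37375 (chr9:87498112-87498498, plus strand), Gm37167 (chr9:32839527-32839922, minus) and Gm43590 (chr3:123471970-123472356, plus). GENCODE types all of them as TEC, a class for transcripts that await experimental evidence. The run is the whole of Gm37375 and of Gm43590, which is annotated in the reverse orientation, so that the end of Gm43590 is the reverse complement of the start of the other pair. The first 30 bases of the run, and the last 30 of Gm43590, show this.
Gm37375: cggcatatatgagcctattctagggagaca
Gm37167: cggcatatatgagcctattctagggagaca
Gm43590: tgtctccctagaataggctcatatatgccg
Gm37375 was listed at 0 with vehicle and at 15.19 with Musclin. Gm43590 went the other way, from 13.91 to a listed 0, and Gm37167 from 12.68 to a listed 0. Each has 20 near-identical genes in the annotation, and the same run, at 98.2% identity, lies within an annotated transcript of Noct. Whether the libraries keep strand is not given here, so opposite orientation need not separate their reads.

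**Figure D2:**
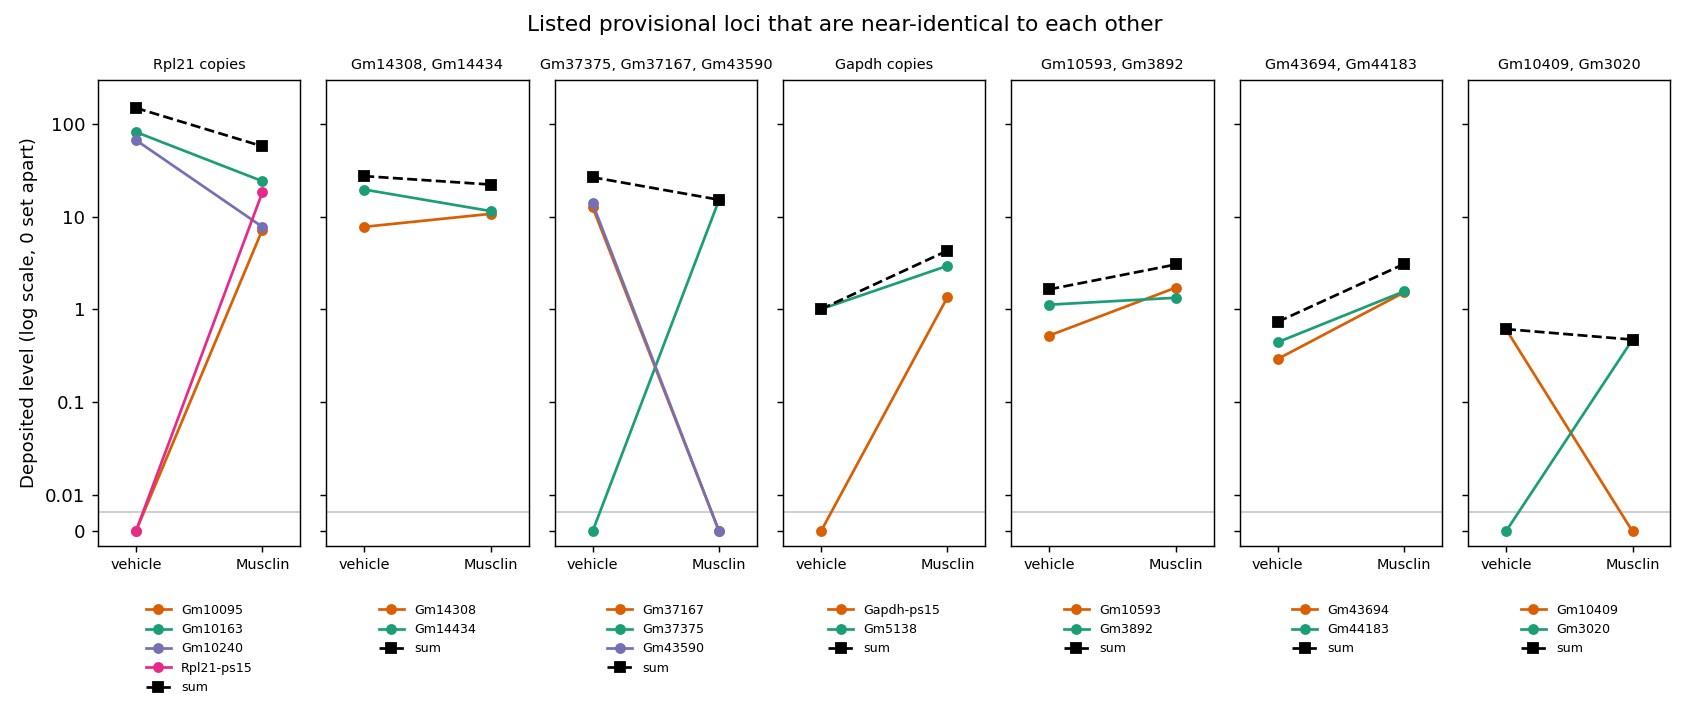
Deposited levels, on a log scale with 0 set apart below the grey line, of the 17 provisional loci that are near-identical to another listed member, in 7 families, with vehicle and with Musclin. Circles are single loci and black squares the sums over the listed members of a family. In 5 families loci of both listed directions occur, as in the listed Rpl21 copies, whose sum went from 148.86 to 57.4.

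The remaining families were at lower levels. Gm10409 and Gm3020, identical over 1933 bases on chromosome 14, had 0.61 and a listed 0 for the first, and a listed 0 and 0.47 for the second. Gm10593 and Gm3892, identical over 3539 bases on chromosome 4, had levels of 0.52 and 1.71 and of 1.12 and 1.33. Both were thus higher by level, yet Gm3892 is lower in the authors' deposited table (fold 0.411). The other 2 families were listed as higher throughout. Gm5138 had 1 and 2.94, and Gapdh-ps15, on chromosome Y, was listed at 0 with vehicle and at 1.35 with Musclin. Both are over 99% identical to Gapdh, the glycolytic enzyme, and have 75 and 74 near-identical genes. Gm43694 went from 0.29 to 1.52 and Gm44183 from 0.44 to 1.56.

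In all, 41 of the 104 loci had a near-identical gene elsewhere, 37 of them a protein-coding one, and 21 had 10 or more such genes. Of the 41, 23 were listed as higher and 18 as lower, and 16 were at 0 in 1 library. Copies of genes outside the ribosome were listed in both directions. Gm7862 copies Hmgn1, a nucleosome-binding protein, at 97.94% identity and had levels of 9.04 and 43.22. Ptges3-ps is identical to part of Ptges3, a co-chaperone of Hsp90, and had 17.09 and 38.72. Gm10241, identical to part of Sumo2, a ubiquitin-like modifier, was listed at 0 with vehicle and at 21.77 with Musclin. Cbx3-ps6, a copy of the heterochromatin protein gene Cbx3 at 99.82% identity, was listed at 0 and at 2.34. These loci were all higher with Musclin.

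Other copies were lower. Gm6741, identical to part of Nanp, a phosphatase of sialic acid synthesis, had 10.62 with vehicle and 0.95 with Musclin. Dynlt1-ps1, a copy of the dynein light chain gene Dynlt1c, had 13.13 and was listed at 0 with Musclin. Mrto4-ps2, a copy of Mrto4, a factor of ribosome assembly, had 4.03 and 1.67. Gm12397, identical over its aligned part to Kdm2b, a histone demethylase gene, had 2.7 and a listed 0. Gm12184, typed as protein-coding by GENCODE and as a pseudogene by RefSeq, is 99.38% identical to Cdk2ap1 and had 2.09 and 0.32. Gm5865, a copy of the small GTPase gene Rab2a, was higher, with 0.36 and 2.57. Gm43198, a TEC locus of 326 nt on chromosome 6, had 9.91 and a listed 0. The sum of the 33 copies of other than ribosomal protein genes was 136.9 with vehicle and 167.75 with Musclin. None of the 9 parent genes named in the -ps loci was listed.

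A second kind of member joins the exons of neighbouring genes. For 12 loci, at least 2 protein-coding genes on the same strand each share 50 or more exonic bases with the locus and together cover 80% or more of it. The shares found were 89.2% to 100%. Of the 12, 8 were listed as higher and 4 as lower, and 6 were at 0 in 1 library. Gm28047 joins exons of Atf7, a transcription factor of the ATF family, and Npff, which encodes neuropeptide FF. It went from 5.14 in the vehicle library to 15.84 in the Musclin library. In the authors' deposited table its fold is 2.275 and its adjusted p, 4.19e-93, is the smallest of all members. Rpl27-ps3, whose levels were far higher, has an adjusted p of 5.6e-65 in the authors' deposited table.

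Gm49383, which shares exons with Dnaaf2, a factor of dynein assembly, and Rpl36al, had the lowest level ratio of any member, with 3.46 and 0.29. Gm27029, made of exons of Aarsd1 and Ptges3l, was also lower, with 2.52 and 0.65. Gm28048 joins B3gnt2, a glycosyltransferase gene, to Commd1 and was listed at 0 with vehicle and at 1.24 with Musclin. Gm20427, of Slc39a7 and H2-Ke6, had 1 and 2.14. The other 7 were below 1 in both libraries. Among them Gm49388, of Setd1a, a histone methyltransferase gene, and Hsd3b7, had 0.1 and 0.7. Gm45837, of Pde2a and Arap1, was listed at 0 and at 0.6, and Gm26920, of the zinc finger genes Zfp82 and Zfp566, at 0.67 and 0. None of the genes that share exonic bases with any member was itself listed. Where exons are shared, reads that do not span the joint cannot be told apart from those of the neighbours.

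The third and largest kind without a copy, 36 loci, shares exonic bases with a gene on the opposite strand. This class leaned the other way: 14 were listed as higher and 22 as lower, and its median log2 level ratio was -1.17 over 26 loci above 0 in both libraries. That median, too, depends on the split of directions and gives no typical size. For 15 of the 36, more than 90% of their exonic bases are shared, and without strand the reads of the pair cannot be told apart there. Gm43126 (chr6, plus strand) shares 86.7% of its exonic bases with Ccnd2, which encodes cyclin D2, and had 15.53 with vehicle and a listed 0 with Musclin. Gm17122 lies wholly within exonic sequence of Coro1c, an actin-binding coronin gene, and was listed at 0 and at 9.43. Gm20659, opposite the phosphatase gene Dusp3, had 2.96 and 0.26. Gm20721, opposite Gnas, which encodes the stimulatory G protein subunit, had 1.22 and 0.17. Gm44709, opposite the elongation factor gene Supt5, had 10.2 and 2.79. Gm37401, opposite the small GTPase gene Rhoa with 93.4% of its bases shared, had 8.76 and a listed 0. E130208F15Rik, wholly opposite Sdhaf1, an assembly factor of succinate dehydrogenase, had 5.55 and 2.63. The last 3 of these were all lower with Musclin. Gm10642, opposite the deubiquitinase gene Mindy2, had 1.46 and 0.37.

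Among the higher loci of this class, Gm26776 had the largest level ratio of all members, from levels of 0.07 and 1.26. It shares 98.6% of its exonic bases with Ccdc3 and lies 62.6 kb from Camk1d, which was also listed as higher. Gm15879, opposite the nuclease gene Dnase1, had 0.51 and 3.12. Gm44672, opposite Sec23ip, had 0.24 and 1.43. Gm26616, opposite Ppp1r15b, which encodes a regulatory subunit of the phosphatase that acts on eIF2α, had 0.33 and 3.39. Gm26669 and Gm47766, 146.4 kb apart on chromosome 12, were both lower, with 2.3 and 1.0 for the first and 4.34 and 1.49 for the second. The other listed neighbours within 200 kb of a member went in opposite directions, as did Gm14308 and Gm14434. Gm49383, listed as lower, lies 23.2 kb from Rn7s1 and 164.1 kb from Rn7s2, both higher. Gm10593, listed as higher, lies 167.5 kb from Ccl19, which was lower.

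**Figure D3:**
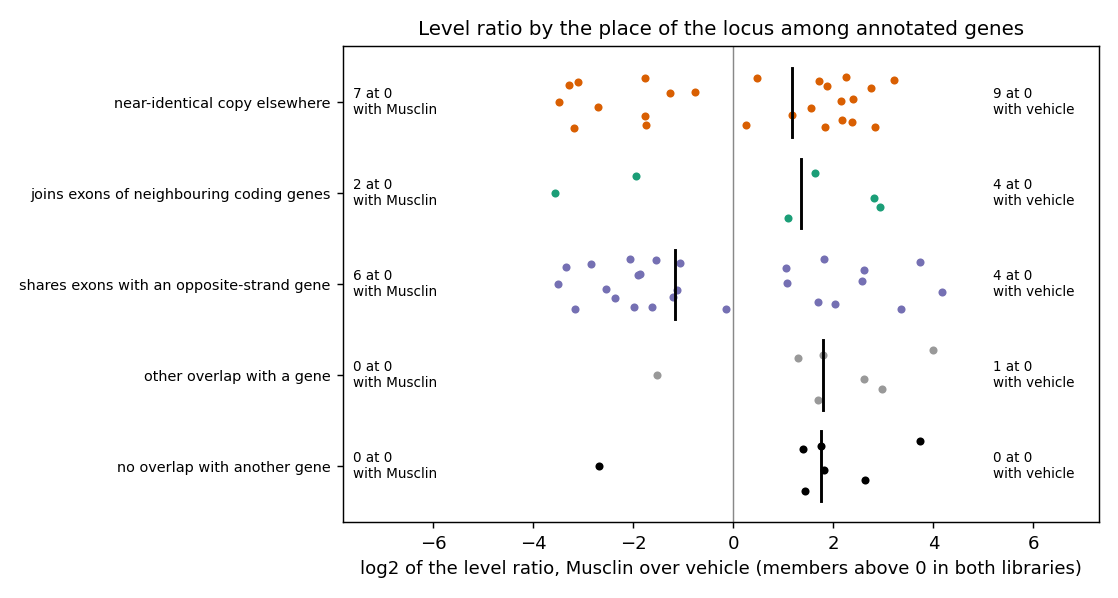
Log2 ratio of the deposited levels, Musclin over vehicle, for the 71 provisional loci above 0 in both libraries, by the place of the locus among annotated genes, with the median of each class as a black bar and the number of loci at 0 at either side. The class that shares exons with an opposite-strand gene has a median of -1.17, and the other classes have medians above 0. Each median takes the sign of the commoner direction in its class.

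The last 15 loci neither had a copy, nor joined neighbours, nor shared exons across strands. Of the 8 that lie inside or otherwise overlap another gene, 7 were higher, and of the 7 that overlap no gene, 6 were. Over both groups, 14 loci had no near-identical copy and no exonic base in common with any other gene, and 13 of them were listed as higher. The classes were drawn after the values were seen, and the difference between them was not tested. Levels in this set were low, with a median of 1.12 in the higher library. A330069E16Rik, a long intergenic noncoding RNA on chromosome 2, was the 1 listed as lower, with 1.61 and 0.25. Among those listed as higher, 4930505A04Rik had 0.21 and 1.3, 1110025M09Rik had 1.48 and 3.87, and Gm48177 had 0.61 and 2.06. Gm43593, inside Evi5, had 0.12 and 0.94, and Gm38375, inside the exoribonuclease gene Xrn1, had 0.57 and 1.39. The lowest of all members was Gm43274, inside Med13l, a Mediator subunit gene, at 0.01 and 0.16, where rounding to 2 decimals alone moves the ratio by over 1.5-fold.

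RefSeq gives Irgb10 as a synonym of Gm12250 and Ifgga3 as one of Gm4841, both of the interferon-inducible immunity-related GTPases, which act against intracellular pathogens in mice. Gm12250 went from 1.96 to 5.28, with a level ratio of 2.69. Gm4841 had 0.49 and 1.72, a level ratio of 3.51. GENCODE M21 types Gm12250 as a processed pseudogene of 1274 nt, while RefSeq types it as protein-coding with a start upstream of that model (chr11:58187739-58189012). RefSeq promoters were found for 14 of the 104 loci. That of Gm12250 (chr11:58183593-58183892, plus strand, GRCm38.p6) is shown because it is the 1 member promoter that holds the motif searched. Capitals mark the letters of the motif GAAANNGAAA, a core form of the interferon-stimulated response element, searched on both strands.
Gm12250: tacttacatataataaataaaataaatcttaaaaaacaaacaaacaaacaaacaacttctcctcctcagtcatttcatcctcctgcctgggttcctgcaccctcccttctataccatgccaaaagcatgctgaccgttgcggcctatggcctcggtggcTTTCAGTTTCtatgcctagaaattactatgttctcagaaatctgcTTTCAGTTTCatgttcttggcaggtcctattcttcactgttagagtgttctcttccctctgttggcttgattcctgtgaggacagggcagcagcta
The motif occurs at 2 places, both times on the reverse strand, at bases 160 to 169 and 205 to 214 of the 300. Of all 32851 RefSeq promoters of this length, 3.44% hold it, and no other of the 14 members does. A match describes these letters only.

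For most members the level ratio and the deposited fold were close. They differed by more than 0.5 on the log2 scale for 7 of the 71 loci above 0 in both libraries, and for 11 of the 67 other genes. All 7 have at least 2 annotated transcripts, whereas 84 of the 104 members, loci at 0 included, have 1. Other loci with several transcripts did not differ so: 1700088E04Rik, with 13, has a level ratio of 0.45 and a deposited fold of 0.43. Gm12940 had nearly equal levels of 3.11 and 2.79, while the authors' deposited table gives 0.239 as its fold. For Gm26616 the level ratio was 10.3 and the fold was 3.319 in the authors' deposited table. Gm3892 was the 1 member whose level ratio, 1.19, went against its listed direction. The others were Gm14308, Gm14434, Gm15879 and E230029C05Rik.

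**Figure D4:**
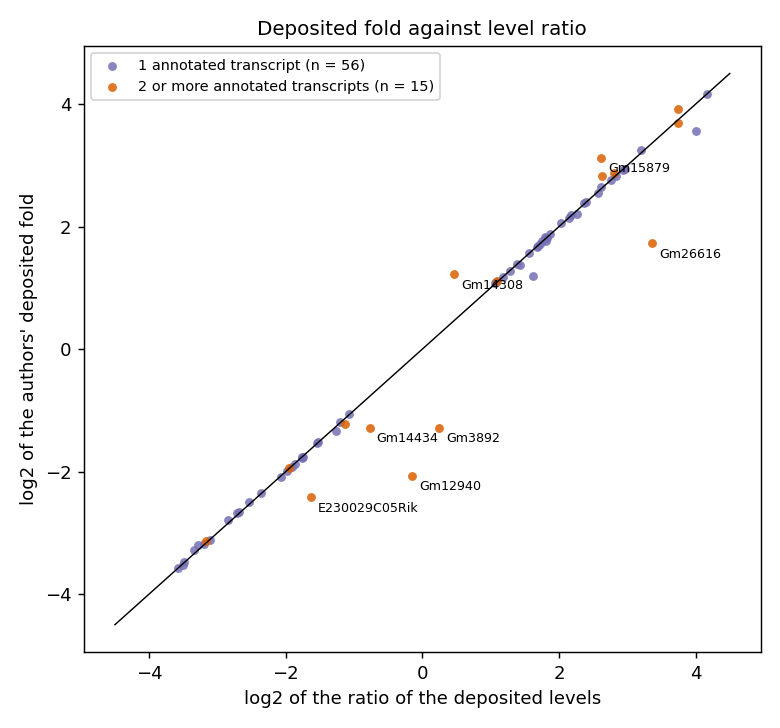
Log2 of the authors' deposited fold (vertical axis) against log2 of the ratio of the deposited levels (horizontal axis) for the 71 provisional loci above 0 in both libraries, coloured by the number of annotated transcripts; the line marks equality. The 7 labelled loci differ by more than 0.5 on the log2 scale, and all have 2 or more annotated transcripts.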

How the data were processed

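RNA sequencing compared 1 Musclin-treated and 1 vehicle-treated culture. Per the file headers, the authors' deposited table holds for each gene the fold of Musclin over PBS, the log2 of that fold, its p-value raw and adjusted, and a signal per library, here called the level, whose unit is not named. The submitters' processing notes name RSEM, edgeR and the build GRCm38.p5. Aligner, annotation release, filters, scaling and strand are not given there or elsewhere in the sources used. Counts and library totals were not analysed here, so the depth is unknown and no interval was computed. Levels carry 2 decimals.

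The number of genes tested, 23180, was worked out from p and adjusted p, as the number that makes every rank by p whole within 0.001 (178 genes; a p of 0 gives no rank). On simulated tables of 178 genes the number was recovered in 10 of 10 runs. Their adjusted p was set as p times the number tested over the rank, so the true number met the rule by construction. The runs show only that no smaller number met it. Level ratios used no pseudocount. Gene type, position and exon overlap came from GENCODE M21, and names and promoters from RefSeq (GRCm38.p6), which held 41 members by symbol. The longest transcript of each locus was aligned to all M21 transcripts with BLAST+ 2.17.0 (megablast). Near-identical means at least 95% identity across 50% or more of the transcript, in a gene that does not overlap the locus. Tables and plots were made in Python 3.11.15 with numpy 2.4.6, pandas 2.3.3 and matplotlib 3.10.9.

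The members and lists were chosen with earlier results of these data known. The rule for named loci took all ribosomal protein pseudogenes, the 8 largest rises and 8 largest falls in level ratio whose higher level reached 1, the 5 highest at 0 in either library, the 5 of highest mean level and the one nearest the median. It gave 31 loci, and any other was named after its values were seen. Alternatives were another p threshold, a level minimum, pseudocounts, the deposited fold, and leaving out loci at 0 or with copies.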

Additional observations from a re-analysis of the deposited data

How the results depend on the processing

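No replicate could be left out, since each group has 1 library. No paired analysis was possible because each group holds 1 library and no test was run. Depth is unknown, and at loci of like length low levels carry the least evidence. Across loci of unlike length the level does not rank the evidence. A high level of a short locus need not rest on more reads than a low level of a long one. Gm10241, for example, is 286 nt long and Gm28048 2746 nt. An adjusted p of 0.01 or less kept 34 loci listed as higher and 24 as lower. A minimum of 1 for the higher level kept 37 higher and 31 lower loci, and 18 of the 33 loci at 0. Leaving out loci with a near-identical copy kept 35 higher and 28 lower, and requiring also that no exonic base be shared kept 13 and 1; both alternatives were chosen after seeing the data. A level ratio of at least 2 in the listed direction kept 57 and 43. The deposited log2 fold of every member was already at least 1.07 in size. This alternative could therefore remove only loci whose level ratio departs from that fold. Leaving out loci at 0 kept 40 and 31. The median log2 level ratio, 1.18, was 1.21 with a pseudocount of 0.1 and 0.43 with a pseudocount of 1 over all members. It was 1.19 from the deposited fold, 1.07 with the level minimum and 1.19 without near-identical copies (the last chosen after seeing the data). This median depends on the split of directions among listed loci, so these values do not test a typical size of change. The 3 higher and 1 lower ribosomal protein pseudogenes stayed under each alternative run on them (level ratio, adjusted p and level minimum). The other alternatives were not run on them. Leaving out loci with a near-identical copy would remove all 4, and leaving out loci at 0 would remove Rpl21-ps15. Of the 21 named loci above 0 in both libraries, none reversed under the deposited fold. Most of them were chosen for a large level ratio, which made a reversal unlikely. Gm3892, which is not among them, has a level ratio of 1.19 and a deposited fold of 0.411. A pseudocount added to both levels cannot reverse a ratio, so only its size was followed. At pseudocounts of 0.1, 1 and 5, a log2 ratio of at least 1 in size was kept by 21, 16 and 5 of the 21 named loci above 0 in both libraries.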
